A study of Homo sapiens with 8 samples.

Results

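The genes of the cytosolic ribosomal proteins were followed through knockdown of PRMT9, an arginine methyltransferase, in 2 human acute myeloid leukemia cell lines. Members were the rows of the Molm13 count table whose symbol is RPL or RPS with a number and, where present, the ending A, X, L or L1, leaving out RPS27L, together with RPLP0, RPLP1, RPLP2 and RPSA. This gave 83 of 57992 genes, 52 named for the large subunit and 31 for the small one, and all 83 were also in the THP1 table. Both lines are established cultures of leukemic myeloid cells. In each line, cells carried hairpin RNA that was either a control (shCtrl, labelled wild type) or directed against PRMT9 (shPRMT9, labelled PRMT9 knockdown), and all groups, shCtrl included, had Dox induction. Polyadenylated RNA was sequenced in 2 libraries per group, 8 in all. The letters OCI, which no label explains, stand in the names of the THP1 samples. No label says whether the libraries of a group came from separate cultures, so p-values measure only the spread between these libraries, which may be technical. The shPRMT9 libraries are numbered 1 and 2, and the study uses the same names for separate hairpins, so whether the 2 libraries of a knockdown group carry the same hairpin is open. They were taken as replicates, and if the hairpins differ, the spread within a knockdown group and the standard errors include that difference.

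Ribosomal proteins coat and stabilize the ribosomal RNA of the 2 subunits, and each ribosome usually holds a single copy of each, apart from the stalk proteins. Their mRNAs are among the most abundant in growing cells. Most begin with a cytosine and a run of pyrimidines, the terminal oligopyrimidine (TOP) motif, through which growth signals acting by the kinase complex mTORC1 and the RNA-binding protein LARP1 control their translation and stability. Loss of one copy of some of these genes causes Diamond-Blackfan anemia, a failure of red-cell production, and several of the proteins hold back MDM2, the ligase that degrades p53, when ribosome assembly stalls. The human genome also carries a large number of processed pseudogenes copied from these mRNAs.

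The start of the transcript was read from RefSeq promoters (GRCh38.p14), which covered 66 of the 83 members. A cytosine within 5 bases of the annotated start followed by at least 4 further pyrimidines was found in 51 of these 66 (77.3%), against 21.1% of 27305 promoters. Among the 62 matched members other than the near copies described below, 50 had such a run, with a median length of 11 bases. The following windows run from 10 bases before the start to base 20 of the transcript, with that run in capitals. They show some members with different responses, not all of those that fell in Molm13, and 2 pairs of near copies.
RPLP1 (chr15:69452808-69452837, plus strand): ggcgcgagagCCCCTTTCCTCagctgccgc
RPS6 (chr9:19380217-19380246, minus strand): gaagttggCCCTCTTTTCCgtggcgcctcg
RPS24 (chr10:78033853-78033882, plus strand): aatcgtggttCTCTTTTCCTCCTTggctgt
RPL28 (chr19:55385922-55385951, plus strand): cctcgCCTTCCTCTTTCCgtctcaggtcgc
RPL12 (chr9:127451387-127451416, minus strand): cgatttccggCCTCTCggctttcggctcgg
RPS26 (chr12:56041908-56041937, plus strand): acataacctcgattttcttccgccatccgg
RPL22 (chr1:6199576-6199605, minus strand): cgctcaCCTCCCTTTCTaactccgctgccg
RPL22L1 (chr3:170870176-170870205, minus strand): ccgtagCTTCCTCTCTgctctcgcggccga
RPL26 (chr17:8383174-8383203, minus strand): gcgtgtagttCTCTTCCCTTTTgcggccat
RPL26L1 (chr5:172958719-172958748, plus strand): tccaggggtcggcgaacgaaacgcggagct

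RPL22 and its near copy RPL22L1 both held the run, whereas RPL26 held it and RPL26L1 did not. RPS26 also held none that began within 5 bases of the start. A later cytosine in its window was followed by 4 further pyrimidines. The letters CCGGAA, the core of ETS-family sites, occurred on either strand of the 300-base promoter in 36 of 66 members (54.5%), against 17.6% of all promoters. AAGATGG, the core of YY1 sites, was present in 13.6% of members and 6.06% of all promoters, and TATAAA in 10.6% and 12.0%. The searches were independent of each other, and a match describes the letters only.

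PRMT9 itself was counted first. Molm13 had 332 and 289 PRMT9 reads in shCtrl and 41 and 56 in shPRMT9, and THP1 had 317 and 352 in shCtrl and 60 and 68 in shPRMT9, with no overlap in either line. Library totals ranged from 18720950 to 27356870 counts. Myeloid genes fixed as markers were expressed in both lines, except that the homeobox gene MEIS1 had 4 to 9 reads in THP1 libraries. Their summed level, in counts scaled to library size (CPM), was 2063 and 2078 in Molm13 shCtrl and 3043 and 3040 in shPRMT9, and it was 2915 and 2866 in THP1 shCtrl and 4343 and 4193 in shPRMT9. The list did not move as one. LYZ, which encodes lysozyme, had means of 634 CPM in Molm13 shCtrl and 1004 in shPRMT9, and of 1886 and 3082 in THP1. CSF1R had means of 14.7 and 61.1 CPM in Molm13 and 67.9 and 139 in THP1. For ITGAM they were 30.1 and 117 in Molm13 and 23.0 and 51.1 in THP1. The means of SPI1, CD33, PTPRC and HOXA9 were also higher in shPRMT9 in both lines. By contrast, MPO, which encodes myeloperoxidase, had lower means in shPRMT9 in both lines (61.1 and 41.3 CPM in Molm13, 7.50 and 4.24 in THP1). The means of CEBPA and FLT3 were lower in shPRMT9 in THP1 (351 and 322 CPM, 55.9 and 50.1) and higher in Molm13. Markers of T cells, red cells and fibroblasts summed to at most 1.91 CPM in every library. The B-cell list was 42.9 and 42.7 CPM in Molm13 shCtrl and 40.7 and 39.5 in shPRMT9, and 4.02 and 4.64 in THP1 shCtrl and 14.1 and 12.6 in shPRMT9, in which the transcription factor PAX5 had the most reads. MS4A1, which encodes CD20, was at 0 in all Molm13 libraries, and the T-cell gene CD3E was at 0 in all THP1 libraries. Mitochondrially encoded transcripts took 6.24% to 6.69% of counts in Molm13 and 7.44% to 8.13% in THP1, with the lower values in shPRMT9. The part of these shifts in the results below was not tested.

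The ribosomal protein genes moved in opposite directions in the 2 lines. In Molm13 they took 4.77% and 4.74% of all counts in shCtrl and 5.99% and 5.93% in shPRMT9, 1.25 times the shCtrl mean. In THP1 they took 3.89% and 3.86% in shCtrl and 3.27% and 3.26% in shPRMT9, 0.842 times the shCtrl mean. The groups did not overlap in either line, but 2 libraries against 2 cannot give a two-sided exact permutation p below 0.333, which was the value in both. These are shares of a library: in bulk RNA, fewer cells of a type and less RNA per cell cannot be told apart, nor can a higher share from a loss of other transcripts.

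**Figure D1:**
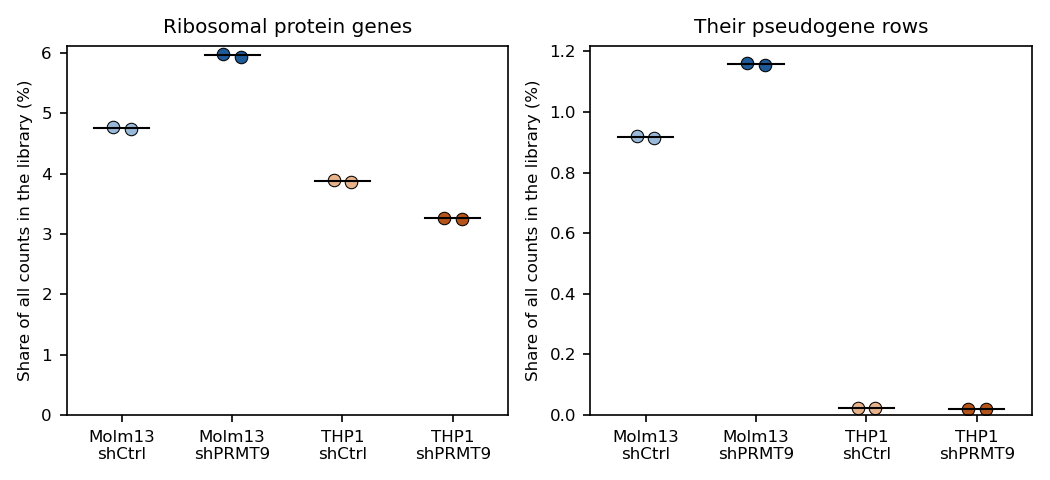
Share of all counts (%, axes from 0) in each library taken by the 83 ribosomal protein genes (left) and by 1041 rows named as their pseudogenes (right), where points are libraries and lines group means. The gene share was higher in Molm13 shPRMT9 (5.96%) than in shCtrl (4.76%) and lower in THP1 shPRMT9 (3.26%) than in shCtrl (3.88%), and the pseudogene share was 0.918% in Molm13 shCtrl but 0.0235% in THP1 shCtrl.

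The first comparison asked how knockdown of PRMT9 changed each gene in Molm13. Of 81 members with enough reads to test, 66 rose and 9 fell at an adjusted p below 0.05, while 33.4% of the 16446 genes tested rose and 33.5% fell. The median log2 fold change of the members was 0.29, a 1.22-fold rise, and their middle range ran from 0.20 to 0.36, whereas the median of all genes was 0.00. Both subunits shared the pattern: 41 of 50 large-subunit genes rose and 6 fell (median 0.29), and 25 of 31 small-subunit genes rose and 3 fell (median 0.25). Both shPRMT9 libraries lay above both shCtrl libraries for 66 members and below them for 12, against 41.2% and 40.8% of all genes tested. The shifts were small, since the greatest rise was 1.42-fold. The limit of 1.5-fold used to define differentially expressed genes was passed by 4 members, all of which fell (RPL26L1, RPL21, RPL36A and RPS26), against 11.3% of all genes tested in that direction. For rises, the share of all genes that passed the limit is not given here.

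**Figure D2:**
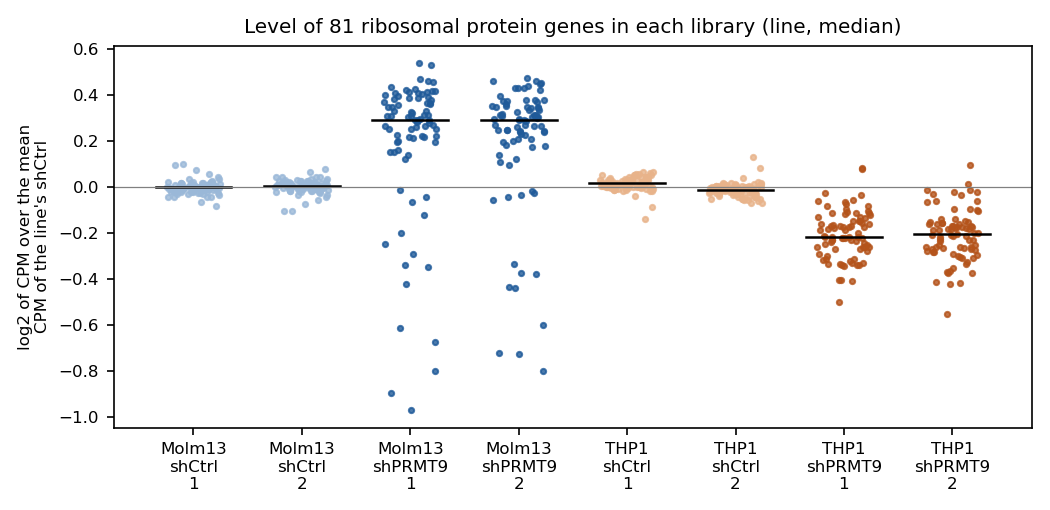
Level of the 81 tested ribosomal protein genes in each of the 8 libraries, as log2 of CPM over the gene's mean CPM in shCtrl of the same line; points are genes and lines medians. Both Molm13 shPRMT9 libraries have a compact upper cloud with a tail of genes below 0, and both THP1 shPRMT9 libraries sit below 0 almost throughout.

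The genes of the stalk, which brings elongation factors to the ribosome, all rose in Molm13, and 3 of them were among the 5 greatest rises. RPLP1 (ENSG00000137818, chr15:69452784-69456194) had 580 and 581 CPM in shCtrl and 837 and 792 in shPRMT9, a log2 fold change of 0.49 ± 0.02 (SE, adjusted p = 1.24e-21). RPLP2 went from 428 and 432 CPM to 589 and 588 (0.45 ± 0.02, adjusted p = 8.72e-21), and RPLP0, the scaffold of the stalk, from 1020 and 1056 to 1281 and 1244 (0.28 ± 0.02, adjusted p = 7.59e-15). RPL12, at the base of the stalk, had 484 and 477 CPM in shCtrl and 661 in both shPRMT9 libraries (0.46 ± 0.02, adjusted p = 3.11e-21). In each of these genes the groups were apart. RPL28, a large-subunit protein, was the member with the greatest rise, from 732 and 715 CPM to 1050 and 1004 (0.51 ± 0.02, adjusted p = 8.89e-23), and RPS28, of the small subunit, rose by 0.45 ± 0.03.

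The genes with the most RNA per length rose as well. RPS12, RPL8, RPS6 and RPS18, all among the 5 highest over both lines by RPKM, that is, CPM per kilobase of exon, had mean levels of 1278, 918, 800 and 698 RPKM in Molm13 shCtrl. Their log2 fold changes were 0.43, 0.25, 0.37 and 0.43. RPS6 (ENSG00000137154, chr9:19375715-19380254), the small-subunit protein that S6 kinases phosphorylate below mTORC1, had 2076 and 2267 CPM in shCtrl and 2837 and 2764 in shPRMT9. The 2 shCtrl libraries thus differed by less than the distance to either shPRMT9 library. RPKM values divide by all annotated exon bases of a gene, including rare isoforms, and understate a gene whose annotated exons exceed its main mRNA.

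Most of the genes known for roles in red-cell and myeloid disease or in p53 control rose in Molm13, as did 66 of all 81 members tested. RPS26, described below, fell. RPS19, the gene most often mutated in Diamond-Blackfan anemia, rose from 631 and 637 CPM to 841 and 822 (log2 0.39 ± 0.02, adjusted p = 3.56e-19). RPS14, lost in a deletion-defined myelodysplastic syndrome, rose by 0.36 ± 0.02. RPS24 and RPL35A, both Diamond-Blackfan genes, rose by 0.31 and 0.20. RPL5 and RPL11, which bind MDM2 together with a ribosomal RNA, rose by 0.22 and 0.39, and RPL23, another MDM2 binder, by 0.25. RPS27A, made as a fusion with ubiquitin, rose by 0.19. RPS7, also a Diamond-Blackfan gene, had 64.5 and 68.7 CPM in shCtrl and 61.2 and 65.7 in shPRMT9, overlapping groups that did not pass the test (adjusted p = 0.22), and RPSA, which doubles as a laminin receptor, had a log2 value of -0.03 (adjusted p = 0.36). Both depend on the assignment of reads, since with the reads of their pseudogene rows added both rose, RPS7 by 0.12 (adjusted p = 1.59e-04) and RPSA by 0.06 (adjusted p = 0.0231).

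RPL26L1, RPL21, RPL36A, RPS26, RPS10, RPL7, RPL17 and RPL41 were among the 9 members that fell in Molm13, and each of these 8 had at most 633 reads in either shCtrl library of that line. RPL21, a large-subunit protein, had 474 and 467 reads (23.2 and 23.9 CPM) in shCtrl and 237 and 304 reads (12.7 and 14.3 CPM) in shPRMT9, a fall of 0.80 ± 0.08 (SE) on the log2 scale (adjusted p = 8.50e-12). RPL36A, also of the large subunit, had 23.2 and 24.1 CPM in shCtrl and 13.6 in both shPRMT9 libraries (-0.80 ± 0.08). RPS26, a small-subunit protein at the mRNA exit and a Diamond-Blackfan gene, had 12.3 and 11.6 CPM in shCtrl and 7.5 and 7.9 in shPRMT9 (-0.63 ± 0.11, adjusted p = 1.66e-06). RPS10, RPL7, RPL17 and RPL41, the last the smallest of the ribosomal proteins, had log2 values of -0.52, -0.43, -0.36 and -0.33. A small read number stands behind each of these values. With pseudogene reads added, RPL7 rose instead (0.10, adjusted p = 0.0130) and RPL17 lost its call (adjusted p = 0.41), and with DESeq2 RPS10 and RPL17 lost theirs (adjusted p = 0.0893 and 0.0569).

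The second comparison asked the same of THP1. Of 81 members tested, 68 fell and 1 rose, while 18.6% of the 16294 genes tested fell and 19.0% rose. The median log2 fold change of the members was -0.20 (0.869-fold), with a middle range from -0.28 to -0.16, and that of all genes was 0.00. Large-subunit genes fell in 39 of 50 cases and small-subunit genes in 29 of 31, with medians of -0.20 in both. Both shPRMT9 libraries lay below both shCtrl libraries for 73 members and above them for 1, against 33.0% of all genes tested in each direction. No member passed the 1.5-fold limit in either direction, whereas 2.39% of all genes tested passed it downwards. The share of all genes that passed it upwards is not given here.

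In THP1, RPS6 had 1565 and 1649 CPM in shCtrl and 1209 and 1202 in shPRMT9, a log2 fold change of -0.41 ± 0.03 (adjusted p = 2.16e-12). RPS21, a small-subunit protein, had 169 and 166 CPM in shCtrl and 127 and 125 in shPRMT9 (-0.41 ± 0.04). RPL24, which forms a bridge between the subunits, fell by 0.39 on the log2 scale, and RPS3A, of the small subunit, by 0.37. None of these groups overlapped. The stalk genes followed, with RPLP0 at -0.35, RPLP1 at -0.28 (698 and 659 CPM in shCtrl, 566 and 548 in shPRMT9) and RPLP2 at -0.25. Of the other genes described above, RPL35A, RPS24, RPS27A, RPL11, RPL5, RPS7, RPS14, RPL23, RPS19 and RPL41 fell by 0.34, 0.31, 0.25, 0.24, 0.23, 0.21, 0.20, 0.20, 0.17 and 0.14. RPSA fell by 0.16.

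RPL12 (ENSG00000197958, chr9:127447674-127451405) was the member that rose in THP1, from 496 and 489 CPM to 520 and 527, a log2 fold change of 0.09 ± 0.03 (adjusted p = 0.0208). The call is fragile: with scaling by library total alone the adjusted p was 0.0917, and with pseudogene reads added it was 0.138. Without the second shCtrl or the second shPRMT9 library it was 0.135 and 0.115. RPL17, RPL38 (a protein tied to translation of Hox mRNAs), RPS2 (at the mRNA entry channel) and RPL28 followed in the order of log2 fold changes, at 0.03, -0.03, -0.04 and -0.05, and did not pass the test. Their groups overlapped in part, with RPL28 at 467 and 432 CPM in shCtrl and 432 and 438 in shPRMT9. RPS26, which fell in Molm13, had 152 and 141 CPM in THP1 shCtrl and 138 and 140 in shPRMT9 (-0.07 ± 0.04, adjusted p = 0.16).

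**Figure D3:**
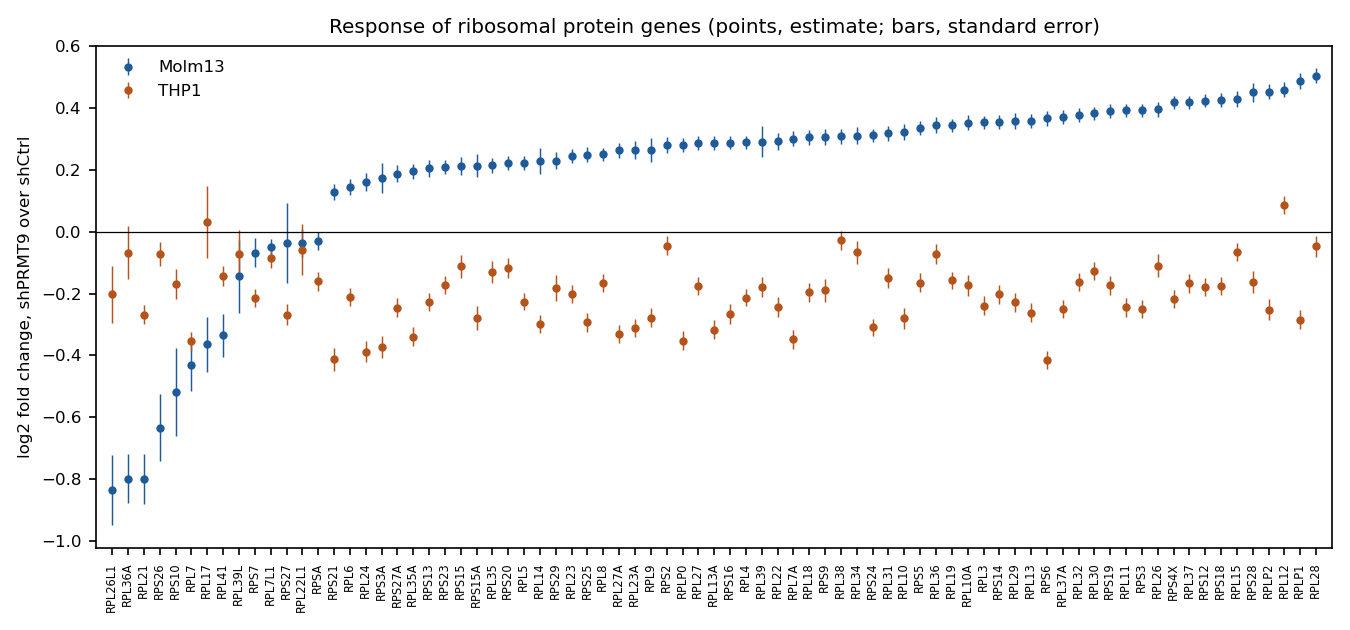
Log2 fold change of shPRMT9 over shCtrl for tested ribosomal protein genes in Molm13 (blue) and THP1 (brown), ordered by the Molm13 value; bars are standard errors, and genes not reported here are left out. From RPS21 rightwards the Molm13 values are above 0, whereas all THP1 values in the plot lie below 0 except those of RPL12 and RPL17.

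Set side by side, 59 of the 81 members rose in Molm13 and fell in THP1. A further 6 rose in Molm13 without passing the test in THP1 (RPL15, RPL28, RPL34, RPL36, RPL38 and RPS2), and 4 fell in THP1 without passing it in Molm13 (RPL7L1, RPS27, RPS7 and RPSA). RPL12 alone rose in both lines, and 5 fell in both, among them RPL21, RPL41, RPL7 and RPS10. Of these, RPL7 rose in Molm13 once pseudogene reads were added, and RPS10 was called in neither line with DESeq2 and, without the first THP1 shCtrl library, not in THP1 (adjusted p = 0.0675). Of the remaining members, RPL17, RPL26L1, RPL36A and RPS26 fell in Molm13 and were not called in THP1. RPL22L1 and RPL39L passed in neither line. The share of all genes with each of these joint patterns was not counted. In the single lines, 33.4% of all genes tested rose in Molm13 and 18.6% fell in THP1.

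A fit of all 8 libraries tested whether the response itself differed between the lines. Line and sample handling cannot be told apart in this comparison. The log2 response was lower in THP1 than in Molm13 for 69 members and higher for 7, while 19.4% of 19288 genes tested were lower and 22.8% higher (42.2% in either direction). The median difference over members was -0.49, that is, the ratio of shPRMT9 to shCtrl in THP1 was 0.712 times that in Molm13, and over all genes it was 0.03. The 5 smallest adjusted p included those of RPS6, with a difference of -0.77 ± 0.04 (adjusted p = 6.87e-34), RPLP1 (-0.76 ± 0.04, adjusted p = 4.02e-32), RPS3 (-0.63) and RPS24 (-0.61). RPS3, a small-subunit protein at the mRNA entry, had 1341 and 1312 CPM, then 1762 and 1721, in Molm13, and 901 and 876, then 738 and 757, in THP1. The 7 members with a higher response in THP1 were RPL36A, RPL26L1, RPS26, RPL21, RPL17, RPS10 and RPL41, which are all among the members that fell in Molm13. Of these, RPL17, RPS10 and RPL41 (0.41, 0.36 and 0.20) lost their call with DESeq2 and with pseudogene reads added, leaving 4. The calls also depended on single libraries. RPL17 lost its call without the second Molm13 shCtrl, either Molm13 shPRMT9, the first THP1 shCtrl or the first THP1 shPRMT9 library (adjusted p from 0.0623 to 0.257). RPL41 lost it without the first Molm13 shCtrl, the second Molm13 shPRMT9, the second THP1 shCtrl or the first THP1 shPRMT9 library (0.106 to 0.414), and RPS10 without any library other than the second Molm13 shCtrl (0.0569 to 0.364).

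Near copies of ribosomal protein genes were followed beside their partners. RPL3L and RPL10L, known from striated muscle and testis, had at most 5 and 2 reads in any library and were not tested, and their partners RPL3 and RPL10 rose by 0.35 and 0.32 in Molm13 and fell by 0.24 and 0.28 in THP1. RPL22L1 had 74.8 and 69.2 CPM in Molm13 shCtrl and 69.8 and 70.6 in shPRMT9, overlapping groups with a log2 value of -0.04 (adjusted p = 0.49), while RPL22 went from 253 and 244 CPM to 304 and 306 (0.29 ± 0.03). In THP1 RPL22L1 had 19.1 and 17.4 CPM in shCtrl and 16.6 and 18.3 in shPRMT9, and RPL22 fell by 0.24. RPL39L, a copy of the exit-tunnel protein RPL39 known from testis, had log2 values of -0.14 and -0.07 in Molm13 and THP1 and passed the test in neither. RPL39 rose by 0.29 in Molm13 and fell by 0.18 in THP1.

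RPL26L1 (ENSG00000037241, chr5:172958729-172969771) had the lowest log2 fold change of all members in Molm13. It had 11.8 and 11.7 CPM in shCtrl and 6.0 and 7.1 in shPRMT9 (-0.83 ± 0.11, adjusted p = 1.82e-08), whereas its partner RPL26 rose from 526 and 530 CPM to 705 and 686 (0.40 ± 0.02). In THP1, RPL26L1 had 13.8 and 14.0 CPM in shCtrl and 12.8 and 11.4 in shPRMT9 (-0.20 ± 0.09, adjusted p = 0.0859). RPL7L1, a relative of RPL7, had 274 and 276 CPM in Molm13 shCtrl and 263 and 269 in shPRMT9 (-0.05 ± 0.03, adjusted p = 0.10) and fell by 0.09 in THP1. That fall (adjusted p = 0.0300) and the fall of RPL26 in THP1 (0.11, adjusted p = 0.0257) each lost the call with DESeq2 (0.0537 and 0.113) and when 1 of 3 libraries was left out: for RPL7L1 either shCtrl library (0.112 and 0.0725) or the second shPRMT9 library (0.131), and for RPL26 either shCtrl library (0.105 in both) or the first shPRMT9 library (0.0828). Of the 4 near copies tested, none rose in Molm13, where 33.4% of all genes tested rose, and only RPL26L1 was called. So few genes cannot set the near copies apart from other genes. No table row named as a pseudogene of RPL26L1, RPL22L1 or RPL39L was present.

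Levels in shCtrl could be set against each other between the lines only with a limit on how reads were assigned. Rows named as pseudogenes of the members, 1041 in all for 76 members, held 187455 and 180667 reads in the Molm13 shCtrl libraries, 19.3% of the members' own reads, and 5905 and 6542 reads in the THP1 shCtrl libraries, 0.593% and 0.620%. RPL3P4 had 9196 and 8896 reads in Molm13 shCtrl and 1 and 2 in THP1 shCtrl, and RPLP0P6 had 10832 and 10348 against 9 and 6. The source of this difference between the tables was not tested, and it cannot be told apart from the line. Within Molm13 the pseudogene reads moved like the members, from 0.921% and 0.915% of all counts in shCtrl to 1.16% in both shPRMT9 libraries, 1.26 times the shCtrl mean.

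With this limit, 28 members were higher and 49 lower in THP1 shCtrl than in Molm13 shCtrl, against 40.1% and 42.7% of all genes tested. The median difference was -0.40 over members and -0.03 over all genes. Adding each member's pseudogene reads to it gave 21 higher and 58 lower, with a median of -0.62. RPLP2, RPL22, RPL12 and RPL13 did not pass the test, but each was called under other processing. RPL12 and RPL22 were called lower in THP1 once a trend with gene length was removed (-0.15 and -0.17). With pseudogene reads added, RPL13 was called lower (-0.83, adjusted p = 2.5e-50) and RPL12 higher (0.21). RPLP2 was called lower with a GC trend removed (-0.36, adjusted p = 2.4e-23). RPL22 was called higher with upper-quartile scaling (0.067, adjusted p = 0.036). RPL26 had 526 and 530 CPM in Molm13 shCtrl and 126 CPM in both THP1 shCtrl libraries, a log2 difference of -2.06 ± 0.03. RPL22L1 also had less in THP1 (-1.98 ± 0.06), whereas RPL39L had more (1.28 ± 0.10).

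The 5 members with the smallest adjusted p in this comparison, RPL7, RPL41, RPL21, RPS27 and RPS7, all stood apart through low Molm13 values. RPS27, a small-subunit protein, had 145 and 140 reads in Molm13 shCtrl (7.1 and 7.2 CPM) against 6281 and 6893 in THP1 shCtrl (245 and 248 CPM), a log2 difference of 5.11 ± 0.06. RPL7 had 385 and 352 reads against 11307 and 12130 (4.58 ± 0.04). The other three differed by 3.87, 3.92 and 2.73. In all, 10 members were more than 2 higher in THP1 on the log2 scale, the others including RPS26, RPS10, RPL39 and RPS3A. These 10 were set apart by their values and are described without a test: in Molm13, 3 rose and 5 fell upon knockdown (median -0.20), whereas of the 71 other members tested 63 rose and 4 fell (median 0.30). In THP1, 9 of the 10 fell (median -0.24) and 59 of the 71 fell (median -0.20).

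**Figure D4:**
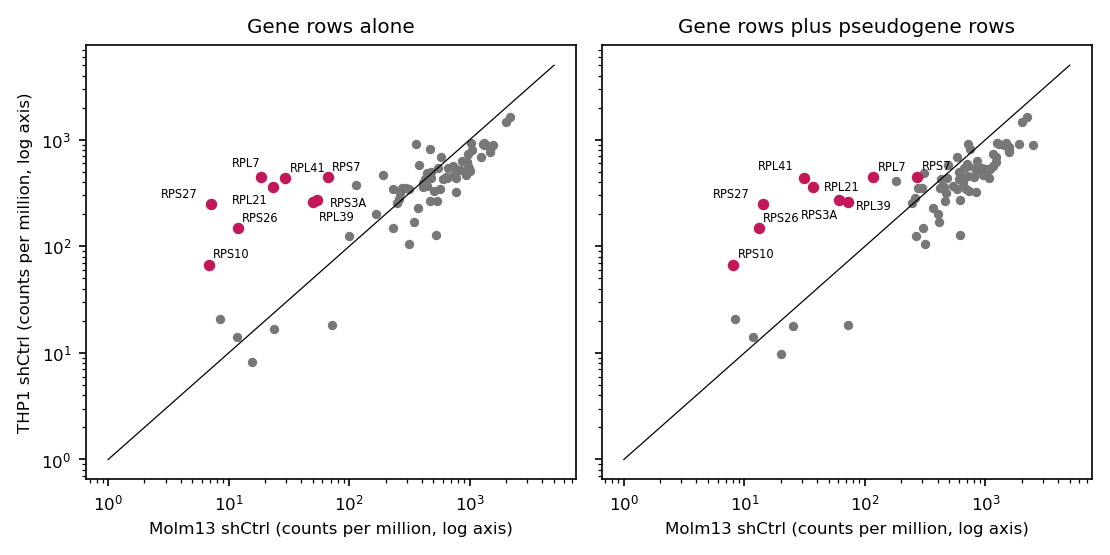
CPM of all reads in THP1 shCtrl (vertical, log axis) against Molm13 shCtrl (horizontal, log axis) for ribosomal protein genes alone (left) and with the reads of its pseudogene rows added (right); the line marks equal values, and the genes named in magenta were more than 2 higher in THP1 on the log2 scale. RPS7 comes close to the line when pseudogene reads are added, and RPS27, RPL41 and RPS26 stay far from it.

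Adding pseudogene reads changed the response of a few of these genes in Molm13. RPL7 turned from -0.43 to 0.10 (adjusted p = 0.0130), since its pseudogene rows held 3975 reads over both shCtrl libraries against 737 for the gene. RPS7 went from -0.07 to 0.12 and RPSA from -0.03 to 0.06, both then called as given above, and RPL17 from -0.36 to -0.07 (adjusted p = 0.41). The falls of RPL21 (-0.45), RPS10 (-0.40), RPL41 (-0.23), RPS26 (-0.64), RPL36A (-0.72) and RPL26L1 (-0.83) kept their direction and their call, and in all 69 members rose and 7 fell with these reads added. Reads credited to neither a gene nor its pseudogene rows are not recovered in this way. RPL41, RPS26 and RPS10 had only 73, 49 and 49 pseudogene reads over both Molm13 shCtrl libraries. Whether unassigned reads affected the falls listed here was not tested. RPL17, RPL36A and RPS10 are also overlapped on their own strand by read-through genes that were at 0 in all 8 libraries, so reads on shared exons could have been credited to neither, and these 3 are uncertain. In all, 13 members share exon bases with another annotated gene on the same strand and 30 on the opposite strand, and the strand setting of the counting is not given in the sources used here.

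Other genes of the translation machinery were read from lists. Of 5 ribosomal proteins whose symbols the rule does not take, 4 rose in Molm13 and 3 fell in THP1. They include RACK1, a signaling scaffold of the small subunit (0.35 and -0.08, called in both), and FAU, made as a fusion with a ubiquitin-like protein (0.20 and -0.12). Of 23 tested TOP mRNAs other than the members, a list that shares 3 genes with the one before, 16 rose and 4 fell in Molm13 (median 0.20), and 4 rose and 14 fell in THP1 (median -0.12). The elongation factor EEF2 rose by 0.42 in Molm13 and fell by 0.13 in THP1, and the growth-related gene TPT1 rose by 0.34 and fell by 0.36. PABPC1, the poly(A)-binding protein, fell in both lines (-0.11 and -0.39). The intermediate filament gene VIM rose in both (1.31 and 1.27), and the snoRNA host SNHG1 fell by 0.52 in Molm13.

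Genes that build ribosomes did not follow the members in Molm13. Of 40 genes of ribosome assembly and ribosomal RNA synthesis, 7 rose and 27 fell (median -0.30). PNO1 and RRS1, assembly factors of the small and large subunit, fell by 1.44 and 1.03, and NOP53, a nucleolar assembly factor, and POLR1D, a subunit of RNA polymerases that make ribosomal and transfer RNA, rose by 0.57 and 0.54. In THP1, 14 rose and 1, NOP53, fell (median 0.09), with TSR1 and LTV1, factors of the small subunit, at 0.26 and 0.24. Of 11 genes for chaperones and importers of ribosomal proteins, 2 rose and 9 fell in Molm13 (median -0.45, BCCIP at -0.62 and IPO9 at -0.55, NAP1L1 at 0.25 and AAMP at 0.14), and 5 rose and 1 fell in THP1 (median 0.08, IPO7 at 0.37, GRWD1 at 0.27 and TSR2 at -0.23).

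Mitochondrial ribosomal proteins, a separate set encoded in the nucleus, fell in 49 of 76 tested cases and rose in 9 in Molm13 (median -0.23), with MRPL20 at -0.95 and MRPL10 at 0.37. In THP1, 9 of 77 rose and 16 fell (median 0.00), with MRPL43 at -0.80 and MRPL50 at 0.67. Of 22 regulators of TOP mRNAs and mTORC1, 3 rose and 13 fell in Molm13 (median -0.23). MTOR, the kinase of the complex, fell by 0.98 and the cap-binding factor EIF4E by 0.83, whereas the mTORC1 inhibitors DDIT4 and DEPTOR rose by 1.37 and 1.26. In THP1, 6 rose and 7 fell (median -0.08), with DEPTOR at -0.84 and LARP4, an RNA-binding relative of LARP1, at 0.43. LARP1 itself fell by 0.62 in Molm13 and had a log2 value of -0.03 in THP1 (adjusted p = 0.54). Every list above is read against the shares of all genes tested. In Molm13, 33.4% of these rose and 33.5% fell, and in THP1, 19.0% rose and 18.6% fell. The falls of mitochondrial ribosomal proteins in THP1 were near that share.

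**Figure D5:**
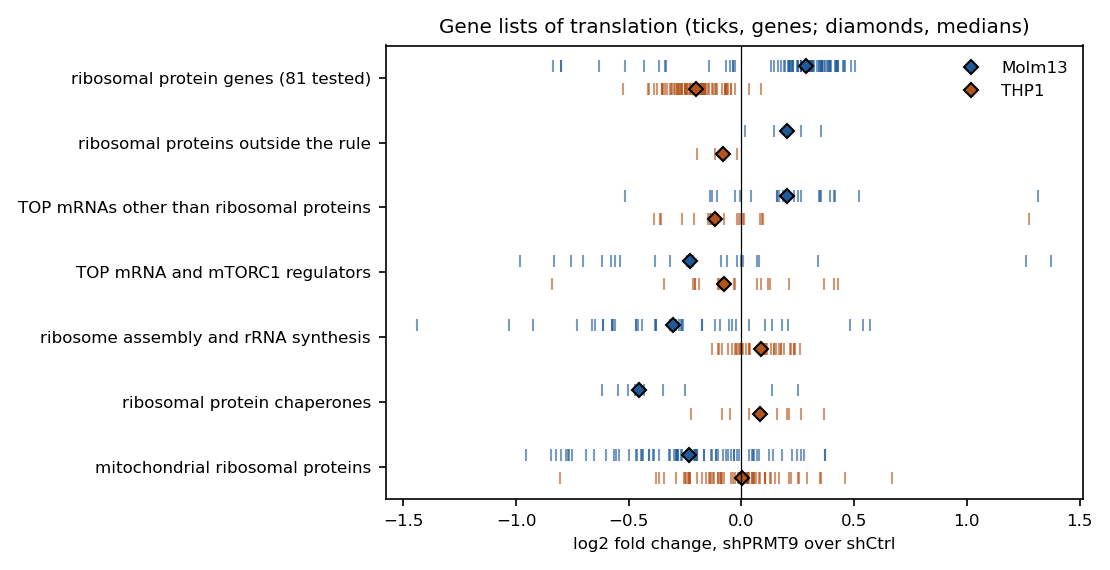
Log2 fold change of shPRMT9 over shCtrl for the genes of each list in Molm13 (blue) and THP1 (brown); ticks are genes and diamonds medians. The medians of the 81 tested ribosomal protein genes (0.29 and -0.20), of the other ribosomal proteins and of the other TOP mRNAs lie above 0 in Molm13 and below 0 in THP1, whereas the medians of assembly genes, chaperones and mitochondrial ribosomal proteins lie below 0 in Molm13 and at or above 0 in THP1.

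Matched members were also described by their start sequence. The 51 members with a pyrimidine run at the start changed by a median of 0.31 on the log2 scale in Molm13 and -0.21 in THP1, and the 14 tested members without one had medians of 0.22 and -0.19. RPS4X, which had none that began within 5 bases of its start, rose by 0.42 in Molm13 and fell by 0.22 in THP1. These values were close to those of RPS24, whose run of 14 bases is printed above (0.31 and -0.31). Matched members that fell in Molm13 were found both with and without a run. RPL21, RPL36A and RPL41 held a run of 10 bases and RPS10 one of 11. RPL17, RPS26 and RPL26L1 held none that began within 5 bases of the start.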

How the data were processed

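Poly(A) RNA-seq libraries of Molm13 and THP1 were analysed, 8 in 4 groups of 2. The authors deposited raw counts per gene, not normalized, in 1 table per line; per the labels, TopHat2 2.0.8, HTSeq 0.11.2, edgeR 3.30.3 and hg38 were used. Library totals ranged from 18720950 to 27356870. Each line was fitted alone, over all genes, in R 4.3.3 with edgeR 4.0.16 (filterByExpr, TMM, quasi-likelihood test, Benjamini-Hochberg adjustment over all genes tested), without a replicate block. A fit of all 8 libraries gave the difference of the responses and the shCtrl difference. RPKM was computed from CPM and the deposited exon lengths. DEGs needed an adjusted p below 0.05, a fold change beyond 1.5 and an RPKM above 1 in at least 1 library. Standard errors are the log2 fold change over the square root of F. DESeq2 1.42.0 was an alternative, as were other scalings, no filter, length and abundance trends, a replicate block and each library left out. Adding pseudogene reads, upper-quartile scaling and a GC trend were chosen after seeing the data. The members and lists were chosen with earlier results of these data known. The genes named are near copies and their partners, stalk genes, disease-linked members, the 5 greatest rises and falls per line, the 5 smallest adjusted p between lines and the 5 highest by RPKM; others are named where a count or a list turns on them. Some of these genes are not reported here and are left out of the plots that name genes. The 5 lowest by RPKM were RPL3L, RPL10L, RPL36A, RPL17 and RPL26L1. The tests were also run on simulated counts in which a limited set of genes changed in random directions. That setting does not cover a joint shift of many genes.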

Additional observations from a re-analysis of the deposited data

Results flagged for a closer look

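The response to knockdown of PRMT9 differed between the lines, by the test of the difference in a fit of all 8 libraries, for 76 of 81 members, with a median difference of -0.49 on the log2 scale (THP1 minus Molm13). Among the 5 members with the smallest adjusted p, the differences were -0.77 for RPS6, -0.76 for RPLP1, -0.63 for RPS3 and -0.61 for RPS24. In this difference, line and sample handling cannot be told apart. Groups of 2 libraries are too small for a test of single outlying libraries.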

How the results depend on the processing

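Over the alternatives run, members higher in Molm13 numbered 64 to 69 and lower 7 to 9, members lower in THP1 62 to 73, and members with a lower response in THP1 68 to 71, and none of the medians changed sign. Upper-quartile scaling moved the median in Molm13 to 0.34, that of the difference in response to -0.55 and that of the shCtrl difference to -0.36. The medians of all genes moved in the same directions, to 0.048, -0.029 and 0.013 in that order. With the abundance trend removed the median difference in response was -0.66, and with pseudogene reads added the shCtrl median was -0.62; the cause was not tested. As a share of summed RPKM the members were 1.24 times shCtrl in Molm13 and 0.856 times in THP1. In THP1 the number higher was 0 in place of 1 with library totals alone, no filter, the abundance trend removed, pseudogene reads added or upper-quartile scaling. Members with a higher response in THP1 numbered 4 with DESeq2, with pseudogene reads added and with upper-quartile scaling. The falls of RPS10 and RPL17 in Molm13 lost their call with DESeq2 (adjusted p = 0.0893 and 0.0569), as did those of RPS10, RPL26 and RPL7L1 in THP1 (0.0625, 0.113 and 0.0537) and the rise of RPS3A in Molm13 (0.111).

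Leaving out each library in turn gave 66 higher and 9 lower throughout in Molm13 and, in THP1, 62 to 68 lower and 0 to 1 higher. The difference in response had 4 to 6 members higher and a median from -0.54 to -0.52, and the median shCtrl difference ran from -0.41 to -0.34. In THP1, RPL28 fell without the second shCtrl library (adjusted p = 0.0264), as did RPS26 (0.0462), and RPL26L1 without the first shPRMT9 library (0.0366). An arm left with 1 library was assumed to vary like the others. Ranges that crossed 0 were -0.089 to 0.014 for RPL22L1 and -0.19 to 0.11 for RPS27 in Molm13, and in THP1 -0.10 to 0.17 for RPL17, -0.13 to 0.013 for RPL22L1, -0.10 to 0.0063 for RPL28 and -0.15 to 0.020 for RPL36A. For RPLP2 in shCtrl the range was -0.064 to 0.045.

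Further signs that turned belonged, apart from RPL7, to values that had not passed the test before the change. Of the values that follow, those of RPL7 (adjusted p = 0.0130), RPS7 (1.59e-04) and RPSA (0.0231) with pseudogene reads, of RPL12 in shCtrl with the length (1.41e-06) or GC trend (0.0191) removed and of RPL22 in shCtrl (1.32e-06) passed it after the change. In Molm13, RPL22L1 turned to 0.036 with the abundance trend removed, 0.011 with upper-quartile scaling and 0.034 with the GC trend removed. RPSA turned to 0.021, 0.018 and 0.013 in the same order and to 0.063 with pseudogene reads. RPS27 turned to 0.10 with pseudogene reads and 0.011 with upper-quartile scaling, RPS7 to 0.0028 with the abundance trend removed and 0.12 with pseudogene reads, and RPL7 to 0.10 with pseudogene reads. RPL17 turned to -0.00037 in THP1 with pseudogene reads. In shCtrl, RPL12 turned to -0.15 and -0.067 with the length or the GC trend removed, RPL22 to -0.17 with the length trend removed, and RPLP2 to 0.014 with upper-quartile scaling.

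Same-numbered libraries deviated with correlations of -0.087 in Molm13 and -0.015 in THP1, so they share only a number. With the replicate number as a block, 66 members rose and 9 fell in Molm13 and 0 rose and 66 fell in THP1, where RPL12 (adjusted p = 0.0538), RPL26 (0.0509) and RPL7L1 (0.0694) lost their call. Depth limits RPL3L, RPL10L and the members with low Molm13 counts.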
